A study of Mus musculus with 8 samples.

Results

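The genes described here are the 8 that encode the transaminases feeding the branched-chain ketoacid dehydrogenase, the subunits of that complex, and the kinase and phosphatase that set its activity. They were chosen by mouse symbol (Bcat1, Bcat2, Bckdha, Bckdhb, Dbt, Dld, Bckdk and Ppm1k), and all 8 were found among the 18395 genes of the count table. All 8 were among the 13901 genes tested. The series compared adipose tissue of mice in which brown adipocytes lacked Kindlin-2 (KO, 4 libraries) with adipose tissue of control mice (WT, 4 libraries). Every mouse of both groups had been kept at 4 °C for 6 hours before the tissue was taken. Kindlin-2, encoded by Fermt2, is an adaptor that binds integrin tails at focal adhesions. The labels call the tissue adipose without naming a depot. The Cre driver, the targeted allele, strain, age and sex were not given in the sources used here, nor was the number of mice behind each sample. The p-values therefore reflect only the variation among these 8 samples, part of which may be technical.

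Leucine, isoleucine and valine lose their amino group to 2-oxoglutarate in a reversible step run by a branched-chain aminotransferase, mitochondrial (Bcat2) or cytosolic (Bcat1). The ketoacids that result are decarboxylated by the branched-chain ketoacid dehydrogenase of the mitochondrial matrix, an irreversible step that commits the carbon to oxidation. The complex is built on a core of the lipoate-bearing acyltransferase encoded by Dbt. Around it sit the thiamine-dependent decarboxylase, made of alpha chains (Bckdha) and beta chains (Bckdhb), and the dihydrolipoamide dehydrogenase encoded by Dld. Dld also serves the pyruvate, 2-oxoglutarate and glycine cleavage complexes. The kinase encoded by Bckdk phosphorylates the alpha chain and shuts the complex off, and the mitochondrial phosphatase encoded by Ppm1k removes the phosphate. Brown fat is known to take up and oxidise branched-chain amino acids in the cold, with the carrier Slc25a44 bringing them into mitochondria. Message levels, which are what was measured here, do not report phosphorylation or flux.

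The site at which Bckdk and Ppm1k act lies in the alpha chain, so its coding stretch in Bckdha is shown, read from the 1899-base transcript of GENCODE M21 (chromosome 7, minus strand). The capitals mark the codon of the regulatory serine, codon 8 of the 15 shown.
Bckdha phosphorylation loop: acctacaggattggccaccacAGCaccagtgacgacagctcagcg

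The 250 bases before the RefSeq start (GRCm38.p6) are shown for the alpha and beta chain genes, whose ratio separated the KO from the WT libraries, and for the kinase and the phosphatase. Capitals mark matches, on either strand, to AGGTCA (a nuclear receptor half-site), GGGCGG (a GC box) or CCAAT. TNAAGGTCA (an oestrogen-related receptor element, which contains the half-site), the NRF-1 element and TGACGTCA (a cyclic AMP response element) were searched as well.
Bckdha, chr7:25658762-25659011, minus strand: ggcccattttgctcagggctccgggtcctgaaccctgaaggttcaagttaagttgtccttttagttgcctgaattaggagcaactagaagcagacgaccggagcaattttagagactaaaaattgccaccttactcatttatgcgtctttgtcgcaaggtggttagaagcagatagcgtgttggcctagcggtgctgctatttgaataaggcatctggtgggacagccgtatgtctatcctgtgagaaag
Bckdhb, chr9:83924887-83925136, plus strand: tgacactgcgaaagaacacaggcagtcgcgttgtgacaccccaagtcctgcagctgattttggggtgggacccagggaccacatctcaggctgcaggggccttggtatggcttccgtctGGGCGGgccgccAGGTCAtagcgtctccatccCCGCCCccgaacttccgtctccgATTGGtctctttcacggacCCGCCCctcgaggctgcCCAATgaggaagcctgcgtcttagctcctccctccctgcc
Bckdk, chr7:127903823-127904072, plus strand: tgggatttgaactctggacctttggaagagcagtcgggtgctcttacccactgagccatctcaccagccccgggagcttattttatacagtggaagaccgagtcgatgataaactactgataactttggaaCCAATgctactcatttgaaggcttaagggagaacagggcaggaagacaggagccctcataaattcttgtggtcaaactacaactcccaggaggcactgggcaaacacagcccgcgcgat
Ppm1k, chr6:57535488-57535737, minus strand: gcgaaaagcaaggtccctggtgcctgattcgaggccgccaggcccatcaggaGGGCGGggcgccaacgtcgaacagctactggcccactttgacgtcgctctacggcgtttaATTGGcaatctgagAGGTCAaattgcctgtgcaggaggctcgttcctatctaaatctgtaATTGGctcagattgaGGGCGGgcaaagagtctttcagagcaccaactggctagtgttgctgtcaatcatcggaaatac

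The Bckdha window held none of the 6 motifs, and 47.6% of its bases were G or C. Bckdhb has 2 windows in the table. The one shown held 1 half-site, 3 GC boxes and 2 CCAAT boxes, with 63.2% G or C, and the other (chr9:83948531-83948780) held none of the 6 motifs, with 36.4% G or C. That of Ppm1k held 1 half-site, 2 GC boxes and 2 CCAAT boxes, and that of Bckdk held 1 CCAAT box. Of all 32851 RefSeq windows of this length, 14.0% held the half-site, 32.7% a GC box and 33.9% a CCAAT box on either strand. A promoter window was found for 7 of the 8 genes, in 10 windows, and none of the 10 held the oestrogen-related receptor, NRF-1 or cyclic AMP element. Those 3 occurred in 1.14%, 3.74% and 1.55% of all windows. A match is a run of letters and was not tested for binding.

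Library totals ranged from 35734373 to 40927141 counts in KO and from 33672272 to 43253559 in WT. Fermt2, which checks the labels, averaged 168 ± 25.3 CPM in KO and 230 ± 19.4 CPM in WT (SD, n = 4 each), with every KO library below every WT library (log2 fold change -0.45 ± 0.14, SE; edgeR adjusted p = 0.134). CPM is the usual depth-scaled count of a gene, here on library sizes adjusted with edgeR's TMM factors, which correct for composition. All 8 brown adipocyte and all 7 general adipocyte markers were counted in all 8 libraries. Skeletal muscle markers took 3.64% of the counts of WT replicate 3 and at most 0.0311% of any other library. Interferon response genes took 0.333% of the counts of KO replicate 2 and at most 0.0329% elsewhere. Results are also given without those 2 libraries, as a 6-library comparison. There Fermt2 stood at -0.32 ± 0.12 (SE; edgeR adjusted p = 0.159). With all 8 libraries scaled by total counts alone it stood at -0.19 (edgeR adjusted p = 0.374), and DESeq2 gave an adjusted p of 0.0336. Fermt2 is therefore a weak check of the labels. By TMM-scaled fold change, brown adipocyte markers lay lower in 8 of 8 cases, with summed shares of 0.650% to 0.986% of raw counts in KO and 0.815% to 1.14% in WT. General adipocyte markers lay lower in 7 of 7 cases by fold change (median log2 -0.28), with raw shares of 1.78% to 2.50% in KO and 1.97% to 2.38% in WT. The raw shares of both lists overlapped between the groups. In each list 3 genes lay lower at an unadjusted edgeR p under 0.05, where 11.1% of all tested genes did. Endothelial markers lay higher in 7 of 8 cases, with 0.164% to 0.298% in KO and 0.109% to 0.156% in WT, and all 8 were counted in every library.

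Of the 8 genes, 7 lay lower in KO and Bcat1 lay higher, and the alpha chain gene Bckdha differed most. By edgeR's quasi-likelihood test with Benjamini-Hochberg adjustment over all 13901 genes, 0 of the 8 passed 0.05, where 0% of all tested genes did. At an unadjusted p under 0.05, 6 of the 8 lay lower and 0 higher, where 11.1% of all tested genes lay lower and 10.4% higher, 21.5% together. In 5 of the 8 (Bcat2, Bckdha, Bckdhb, Dld and Bckdk) every KO library lay below every WT library on TMM-scaled levels, against 7.56% of all tested genes. With scaling by total counts alone, Bckdha alone among these genes kept that separation. In 0 of the 8 did every KO library lie above every WT library, against 5.8%, and 13.4% of all tested genes had groups that did not overlap in either direction. The median log2 fold change of the 8 was -0.40, beside 0.00 over all tested genes, of which 49.5% lay below 0. In bulk tissue, fewer cells of a type and less RNA per cell cannot be told apart, and the part of cell makeup in these differences was not tested.

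Bcat2, the mitochondrial aminotransferase, was measured at 99.4, 84.6, 118 and 115 CPM in KO replicates 1 to 4. In WT replicates 1 to 4 it was 139, 174, 141 and 150 CPM. The groups did not overlap, and KO replicate 2 was the lowest library. Its log2 fold change was -0.54 ± 0.13 (SE; edgeR adjusted p = 0.105), and -0.48 ± 0.13 in the 6-library comparison (adjusted p = 0.0751). DESeq2 gave an adjusted p of 0.0129, a test that called 8.71% of its 12778 genes.

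Bcat1, the cytosolic aminotransferase, had the lowest level of the 8 per length, with 80 to 167 counts per KO library and 26 to 79 per WT library. That was 1.84, 2.52, 4.46 and 2.29 CPM in KO replicates 1 to 4, against 0.780, 2.41, 1.71 and 1.98 CPM in WT. The groups overlapped, with KO replicate 3 highest and WT replicate 1 lowest. The log2 fold change of 0.69 ± 0.41 (SE) did not pass (edgeR adjusted p = 0.333, unadjusted p = 0.121). It was 0.36 without KO replicate 3 and 0.45 without WT replicate 1. All 9 T and NK cell markers lay higher in KO as well, and all 9 were counted in every library. Their summed share was 0.00186% to 0.0178% in KO and 0.00031% to 0.00293% in WT, highest in KO replicate 2, which was not the library highest for Bcat1. Their part in the Bcat1 difference was not tested.

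Bckdha (ENSMUSG00000060376) encodes the decarboxylase alpha chain that carries the serine shown above. It was measured at 31.2, 73.9, 65.6 and 43.8 CPM in KO replicates 1 to 4. In WT replicates 1 to 4 it was 115, 136, 102 and 143 CPM. The highest KO library lay below the lowest WT library, and relative to its mean the spread was wider in KO (coefficient of variation 36.5%) than in WT (15.4%). The means were 53.6 ± 19.6 CPM in KO and 124 ± 19.1 CPM in WT (SD, n = 4 each), so that KO averaged 43.3% of WT. The log2 fold change was -1.21 ± 0.26 (SE; edgeR adjusted p = 0.0981, unadjusted p = 0.00114). Of all tested genes, 2.47% had a log2 fold change at or below this value.

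Bckdha passed the threshold in the 6-library comparison, where it fell by 1.48 ± 0.25 on the log2 scale (edgeR adjusted p = 0.0329). That comparison called 1 of the 8 genes, Bckdha, and 3.32% of all tested genes (1.5% lower and 1.82% higher). In it 7 of the 8 lay below 0, as did 48.9% of all tested genes. Without KO replicate 2 alone it was also the 1 gene of the 8 called (log2 fold change -1.40, adjusted p = 0.0344), where 2.57% of all genes were called. DESeq2 called Bckdha, Bcat2 and Dld. Limma-voom with sample quality weights called the same 3 genes, among 6.55% of all genes. In GENCODE M21, 1171 of the 1899 exon bases of Bckdha are also exon of B3gnt8 on the opposite strand. B3gnt8 averaged 5.09 ± 0.681 CPM in KO and 3.95 ± 0.944 CPM in WT (SD, n = 4 each). The libraries keep strand, but whether the counting used it is not given in the sources used here.

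Bckdhb, the beta chain of the same decarboxylase, was measured at 97.5, 108, 122 and 113 CPM in KO replicates 1 to 4. In WT replicates 1 to 4 it was 124, 168, 133 and 130 CPM. The groups did not overlap, but KO replicate 3 lay close below WT replicate 1. Its log2 fold change was -0.33 ± 0.13 (SE; edgeR adjusted p = 0.192). Dbt, the acyltransferase core, was measured at 70.7, 56.6, 94.1 and 84.5 CPM in KO and at 102, 104, 93.4 and 121 CPM in WT. KO replicate 3 lay just above WT replicate 3, so the groups overlapped, and the log2 fold change was -0.46 ± 0.16 (edgeR adjusted p = 0.171). In neither gene did the difference pass under any fit tried.

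Dld, the dihydrolipoamide dehydrogenase shared with the other ketoacid complexes, had the highest level of the 8 per length. It was measured at 313, 410, 507 and 437 CPM in KO replicates 1 to 4, against 574, 673, 586 and 732 CPM in WT. The groups did not overlap, and KO replicate 1 was the lowest library. The log2 fold change was -0.62 ± 0.16 (SE; edgeR adjusted p = 0.115, DESeq2 adjusted p = 0.0126), and -0.65 ± 0.19 in the 6-library comparison (edgeR adjusted p = 0.0840).

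Bckdk, the kinase that inactivates the complex, was measured at 92.7, 112, 134 and 135 CPM in KO replicates 1 to 4, against 140, 146, 173 and 145 CPM in WT. The groups did not overlap, and WT replicate 3 stood above the other WT libraries. The log2 fold change was -0.35 ± 0.14 (SE; edgeR adjusted p = 0.207), and -0.25 ± 0.16 in the 6-library comparison (edgeR adjusted p = 0.376). Ppm1k, the phosphatase that reactivates it, was measured at 13.5, 24.0, 17.3 and 14.9 CPM in KO and at 16.5, 22.7, 18.7 and 16.7 CPM in WT. The groups overlapped throughout, with KO replicate 2 the highest of all 8 libraries and KO replicate 1 the lowest. Its log2 fold change of -0.10 ± 0.20 did not pass (edgeR adjusted p = 0.793), and its sign turned with the scaling and with the libraries used.

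**Figure D1:**
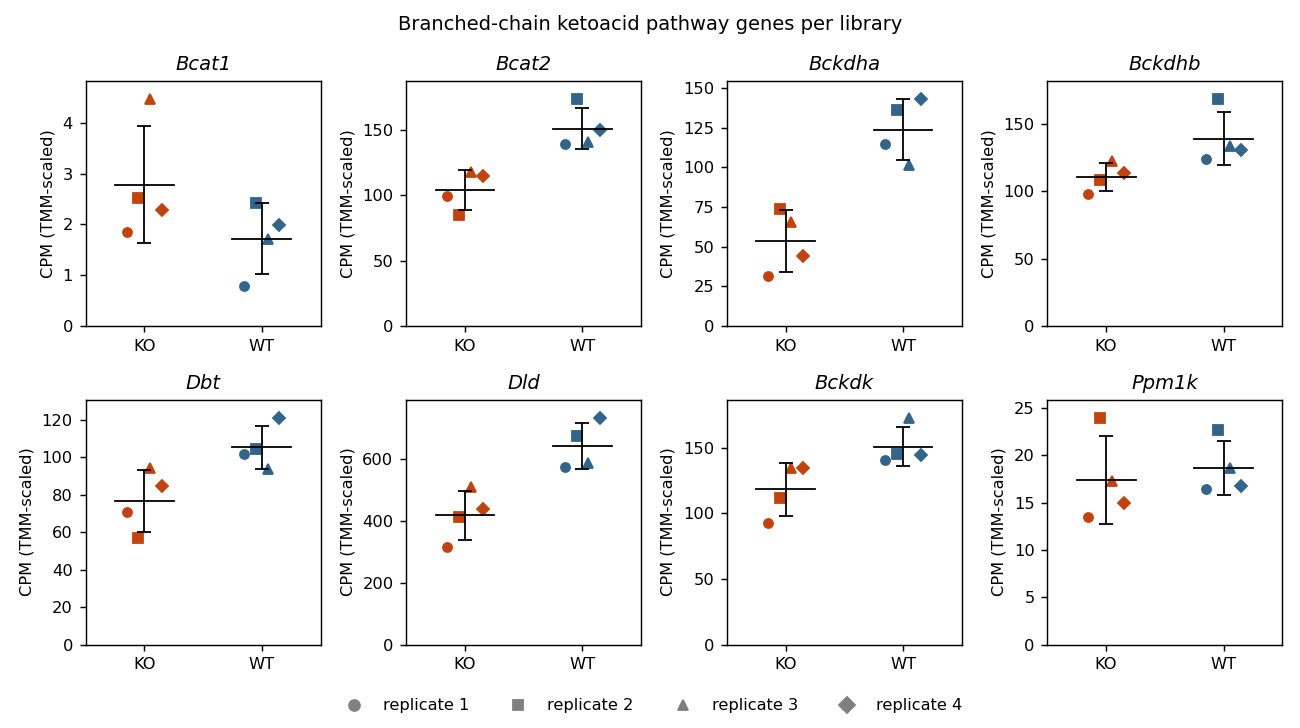
Level of each gene in CPM (TMM-scaled) in the 4 KO and 4 WT libraries. Symbols mark the replicate, the long line is the group mean and the bar its SD (n = 4). For Bckdha the KO libraries lie between 31.2 and 73.9 CPM and the WT libraries between 102 and 143 CPM.

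The plot of CPM by library shows that the low KO library was not the same for all genes. KO replicate 1 was the lowest KO library for Bckdha, Bckdhb, Dld, Bckdk, Ppm1k and Bcat1. KO replicate 2 was the lowest for Bcat2 and Dbt, as it was for Ucp1, the uncoupling protein of brown fat. Relative to the WT mean, Bckdha stood at 25.2% and Bcat2 at 65.8% in KO replicate 1. In KO replicate 2 they stood at 59.7% and 56.1%. KO replicate 1 had the largest TMM factor, 1.15, and the largest endothelial marker share, 0.298%. KO replicate 2 had the smallest brown adipocyte marker share, 0.650%, beside its interferon and T and NK cell transcripts. The part of these library features in the order of the KO libraries was not tested.

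Between genes, levels were compared per kilobase of merged exon length. In KO the order of mean levels was Dld, Bckdhb, Bckdk, Bckdha, Bcat2, Dbt, Ppm1k and Bcat1. In WT it was Dld, Bckdhb, Bckdha, Bckdk, Bcat2, Dbt, Ppm1k and Bcat1. Dld averaged 113 ± 21.8 CPM per kilobase in KO and 174 ± 20.3 in WT (SD, n = 4 each). Bckdhb averaged 61.2 ± 5.74 CPM per kilobase in KO and 76.9 ± 11.02 in WT. Bckdha averaged 28.2 ± 10.3 CPM per kilobase in KO and 65.2 ± 10.04 in WT. On merged exon length Bckdha and Bckdhb therefore overlapped in WT libraries, and in KO libraries every value of Bckdha lay below every value of Bckdhb. The overlap in WT depended on the length used, as given below.

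Bckdk (32.1 ± 5.50 CPM per kilobase in KO and 40.8 ± 4.05 in WT) and Bcat2 (26.7 ± 3.91 in KO and 38.7 ± 4.06 in WT) overlapped in WT libraries, as did Bcat2 and Dbt. In KO libraries each neighbouring pair among Bckdk, Bckdha, Bcat2 and Dbt overlapped. Ppm1k averaged 2.89 ± 0.773 CPM per kilobase in KO and 3.10 ± 0.479 in WT. Bcat1 averaged 0.298 ± 0.124 CPM per kilobase in KO and 0.185 ± 0.0741 in WT. The phosphatase and the cytosolic aminotransferase thus stood below the other 6 genes in all libraries. With the longest transcript as the length, Bcat2 moved up, to 50.0 ± 7.34 CPM per kilobase in KO and 72.5 ± 7.60 in WT, above Bckdha in both groups. Bckdhb moved up too, to 94.0 ± 13.5 CPM per kilobase in WT. On that length every WT value of Bckdha (at most 75.3) lay below every WT value of Bckdhb (at least 83.8).

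**Figure D2:**
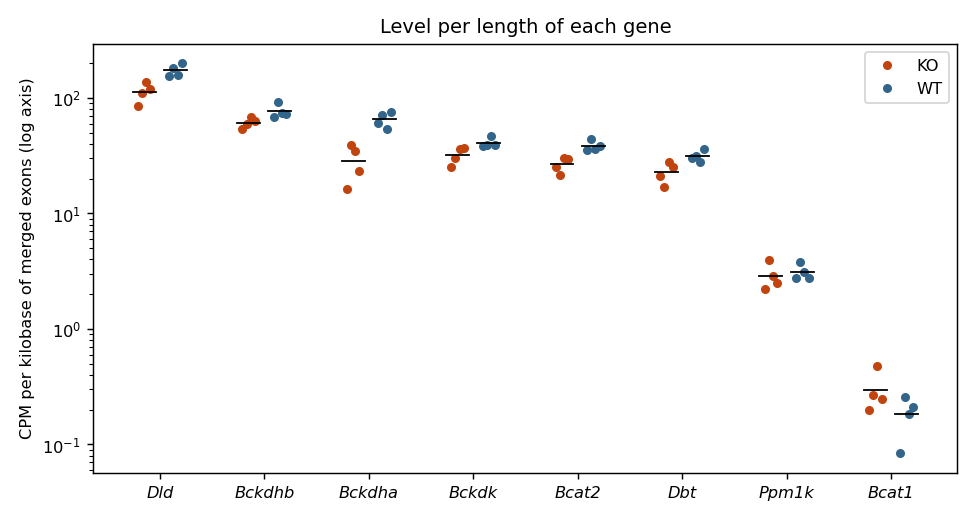
Level per kilobase of merged exon length, on a log axis, of each gene in the 4 KO (left of each pair) and 4 WT libraries. Lines are group means. Genes are ordered by their WT mean, from Dld at 174 to Bcat1 at 0.185 CPM per kilobase.

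Ratios between genes of 1 library do not depend on how that library was scaled, and were taken on the level per kilobase. They are given as descriptions with no test, since the genes were chosen with results of these data known. Bckdhb over Bckdha was 3.29, 1.54, 1.96 and 2.72 in KO replicates 1 to 4, against 1.14, 1.30, 1.38 and 0.959 in WT. The beta chain message thus stood in higher proportion to the alpha chain message in all KO libraries than in any WT library. The mean ratios were 2.38 ± 0.777 in KO and 1.19 ± 0.186 in WT (SD, n = 4 each).

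Dld over Bckdha was 5.17, 2.86, 3.98 and 5.14 in KO, against 2.58, 2.55, 2.97 and 2.64 in WT. Dbt over Bckdha was 1.28, 0.435, 0.813 and 1.09 in KO, against 0.503, 0.435, 0.521 and 0.480 in WT. In both ratios KO replicate 2 lay among or below the WT libraries, and the remaining 3 stood higher than every WT library. WT libraries agreed closely with each other, with SDs of 0.193 and 0.0371.

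The kinase message stood at 1.53, 0.777, 1.05 and 1.58 times that of its substrate, Bckdha, in KO replicates 1 to 4. In WT replicates 1 to 4 it stood at 0.629, 0.550, 0.875 and 0.519 times. WT replicate 3, the library with muscle transcripts, overlapped KO replicate 2, the library with interferon transcripts. The remaining 3 KO libraries exceeded every WT library. The phosphatase over kinase ratio, Ppm1k over Bckdk, was 0.0891, 0.132, 0.0790 and 0.0678 in KO and 0.0720, 0.0958, 0.0662 and 0.0710 in WT, with overlap of the groups. Bcat1 over Bcat2 was 0.00776, 0.0125, 0.0159 and 0.00836 in KO, against 0.00235, 0.00582, 0.00507 and 0.00553 in WT. The cytosolic form thus stayed a small part of the aminotransferase messages in all libraries, with all KO ratios above all WT ratios. Bcat1 alone overlapped between the groups, on few counts, whereas Bcat2 alone did not overlap and lay lower in KO. How often ratios of other gene pairs separate the groups was not examined, for this ratio or for Bckdhb over Bckdha.

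**Figure D3:**
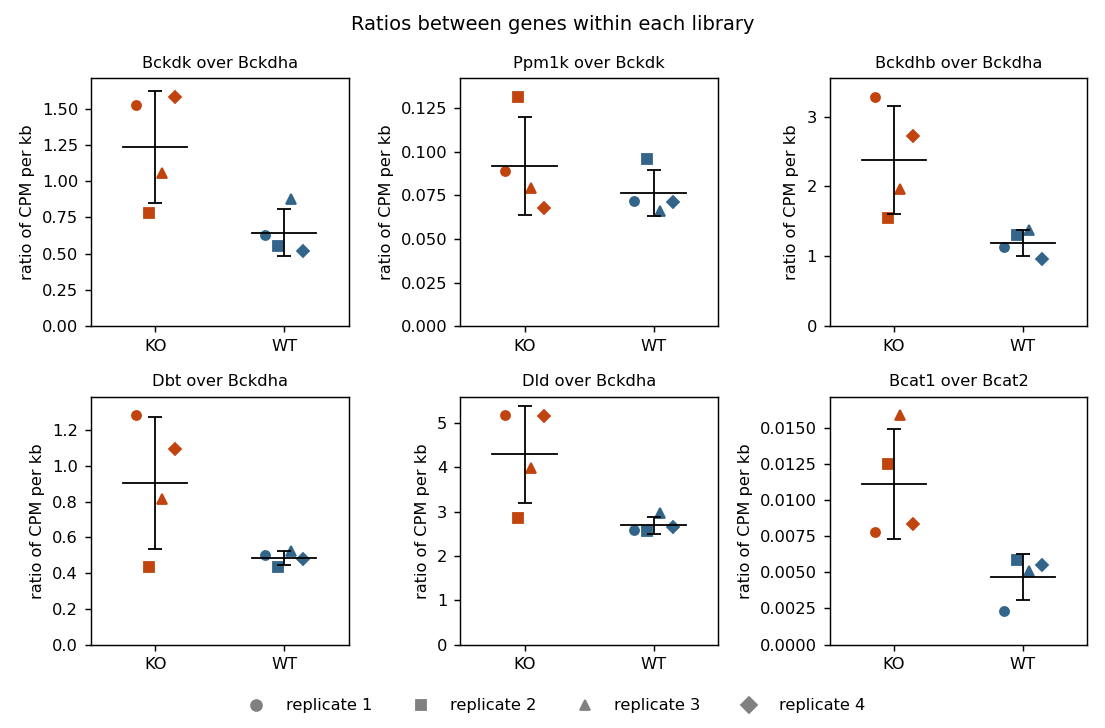
Ratios of CPM per kilobase between genes within each library, in 4 KO and 4 WT libraries. Symbols mark the replicate, the long line is the mean and the bar the SD (n = 4). The ratio of Bckdhb to Bckdha is at least 1.54 in KO and at most 1.38 in WT.

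With scaling by total counts alone, the median log2 fold change of all tested genes was 0.26, and 6 of the 8 genes lay below 0. Bckdha then stood at -0.96 (edgeR adjusted p = 0.0516), which was -1.23 relative to that median. Bcat2, Dld and Dbt stood at -0.28, -0.37 and -0.21, which were -0.55, -0.64 and -0.47 relative to it. Bckdhb, Bckdk and Ppm1k stood at -0.08, -0.09 and 0.15, which were -0.34, -0.36 and -0.11 relative to it. Bcat1 stood at 0.93. The unadjusted edgeR p was 0.00372 for Bckdha, 0.0368 for Dld and 0.0445 for Bcat1. It was 0.0691 for Bcat2, 0.226 for Dbt, 0.564 for Bckdhb, 0.476 for Bckdk and 0.453 for Ppm1k. TMM factors lay between 1.05 and 1.15 in KO and between 0.879 and 0.948 in WT. On counts divided by library totals alone, KO and WT libraries overlapped for Bcat2, Bckdhb, Dld and Bckdk, and not for Bckdha.

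**Figure D4:**
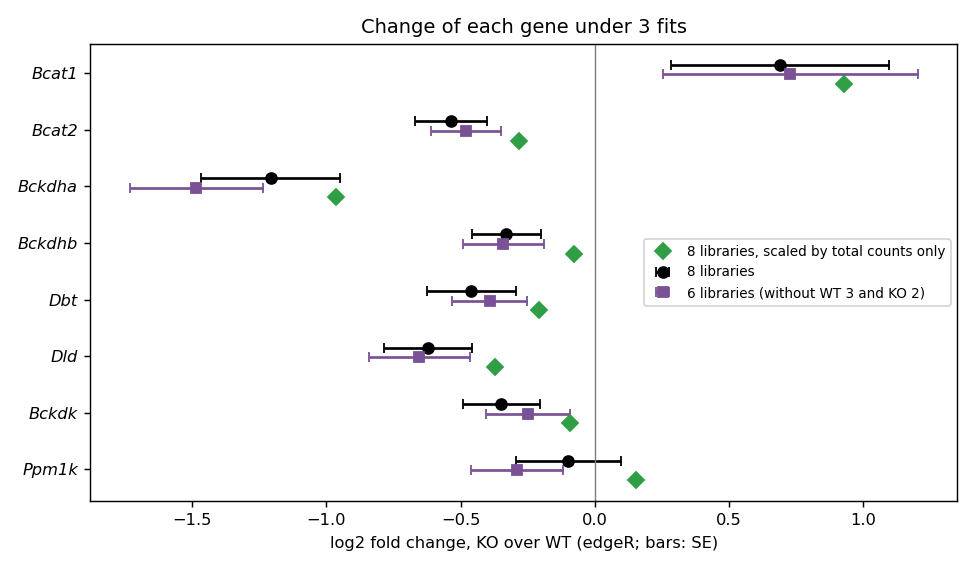
Log2 fold change of KO over WT for each gene by edgeR, with all 8 libraries, with 6 libraries (without WT replicate 3 and KO replicate 2) and with all 8 scaled by total counts alone. Bars are standard errors, drawn for the TMM-scaled fits. Bckdha lies at -1.21, -1.48 and -0.96, and Ppm1k at -0.10, -0.29 and 0.15.

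Enzymes that act after the dehydrogenase lay lower in KO as well, but none by as much as Bckdha. All 19 listed enzymes of the leucine, valine, isoleucine and propionate steps lay lower, with log2 fold changes from -0.80 to -0.06 and a median of -0.54. Over all genes 0 of the 19 passed with 8 libraries, and 16 had an unadjusted p under 0.05, where 11.1% of all tested genes lay lower at that threshold. In 11 of the 19 every KO library lay below every WT library on TMM-scaled levels, against 7.56% of all tested genes. In the 6-library comparison 11 of the 19 passed, all lower, where 1.5% of all tested genes were called lower. These lists were written with earlier results of these data known, so their direction is no independent evidence.

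Of the leucine steps, Ivd, the isovaleryl-CoA dehydrogenase, averaged 139 ± 13.0 CPM in KO and 228 ± 20.4 CPM in WT (SD, n = 4 each). Mccc2, which encodes the beta subunit of methylcrotonyl-CoA carboxylase, stood at 61.1 ± 5.05 CPM in KO and 96.9 ± 4.93 CPM in WT. Of the valine steps, Aldh6a1, the methylmalonate semialdehyde dehydrogenase, averaged 339 ± 44.7 CPM in KO and 566 ± 71.1 CPM in WT, and Hibadh averaged 310 ± 39.4 CPM in KO and 491 ± 39.5 CPM in WT. Of the isoleucine steps, Acat1, the mitochondrial thiolase, averaged 387 ± 55.8 CPM in KO and 618 ± 50.1 CPM in WT. Of the propionate steps, Mut, the methylmalonyl-CoA mutase, averaged 60.2 ± 11.7 CPM in KO and 105 ± 9.28 CPM in WT. These 6, named for the smallest p of their lists, are among the 11 whose groups did not overlap, with edgeR adjusted p between 0.0874 and 0.0929. All 6 passed in the 6-library comparison.

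Of 6 transport genes, 5 lay lower, with a median of -0.37. Of the 6, 1 lay lower at an unadjusted p under 0.05, a share near the 11.1% of all tested genes. Slc25a44, the mitochondrial carrier, was measured at 50.7, 69.4, 81.4 and 68.9 CPM in KO replicates 1 to 4. In WT replicates 1 to 4 it was 100, 105, 76.0 and 114 CPM. The groups overlapped through KO replicate 3 and WT replicate 3, and the log2 fold change was -0.55 ± 0.17 (SE; edgeR adjusted p = 0.143, and 0.0637 with 6 libraries).

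Of the other complexes that Dld serves, all 4 pyruvate dehydrogenase complex genes and all 3 genes of the 2-oxoglutarate and 2-oxoadipate dehydrogenases lay lower, with medians of -0.66 and -0.48, and 0 of the 7 passed over all genes. Of the glycine cleavage system 2 genes were tested, and they differed in sign. Gcsh, its lipoate-bearing carrier, had a log2 fold change of -0.44 ± 0.18 and Amt, its aminomethyltransferase, 0.27 ± 0.21 (SE; edgeR adjusted p = 0.197 and 0.450). Pdha1, the pyruvate dehydrogenase alpha chain, averaged 278 ± 109 CPM in KO and 482 ± 95.3 CPM in WT (log2 fold change -0.80 ± 0.27, edgeR adjusted p = 0.163). It fell by 1.19 ± 0.20 in the 6-library comparison (adjusted p = 0.0313). Dlat, the acyltransferase of that complex, averaged 330 ± 73.1 CPM in KO and 563 ± 77.6 CPM in WT (log2 fold change -0.77 ± 0.18, adjusted p = 0.103).

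Among 7 pyruvate dehydrogenase kinases and phosphatases, relatives in role of Bckdk and Ppm1k, 6 lay lower with a median of -0.45. Pdk2 averaged 324 ± 26.7 CPM in KO and 489 ± 45.3 CPM in WT, and Pdk4 averaged 1873 ± 543 CPM in KO and 3504 ± 639 CPM in WT (edgeR adjusted p = 0.0915 and 0.103). In the 6-library comparison 5 of the 7 lay lower and 3 passed, all lower, where 1.5% of all tested genes were called lower. Pdk2 and Pdk4 were among those 3 (edgeR adjusted p = 0.0361 and 0.0313). Of 10 tested phosphatases of the Ppm1k family, 6 lay lower, with a median of -0.18, and 0 passed. All 7 tested genes for lipoate and thiamine supply lay lower (median -0.34), and 0 passed. Of 8 transcriptional regulators linked to this pathway, 4 lay lower and 4 higher, with a median of -0.04. Ppargc1b, a transcriptional coactivator, averaged 98.0 ± 29.6 CPM in KO and 56.0 ± 18.6 CPM in WT. Ppargc1a, its relative, averaged 69.0 ± 26.3 CPM in KO and 119 ± 31.1 CPM in WT (edgeR adjusted p = 0.156 and 0.187).

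**Figure D5:**
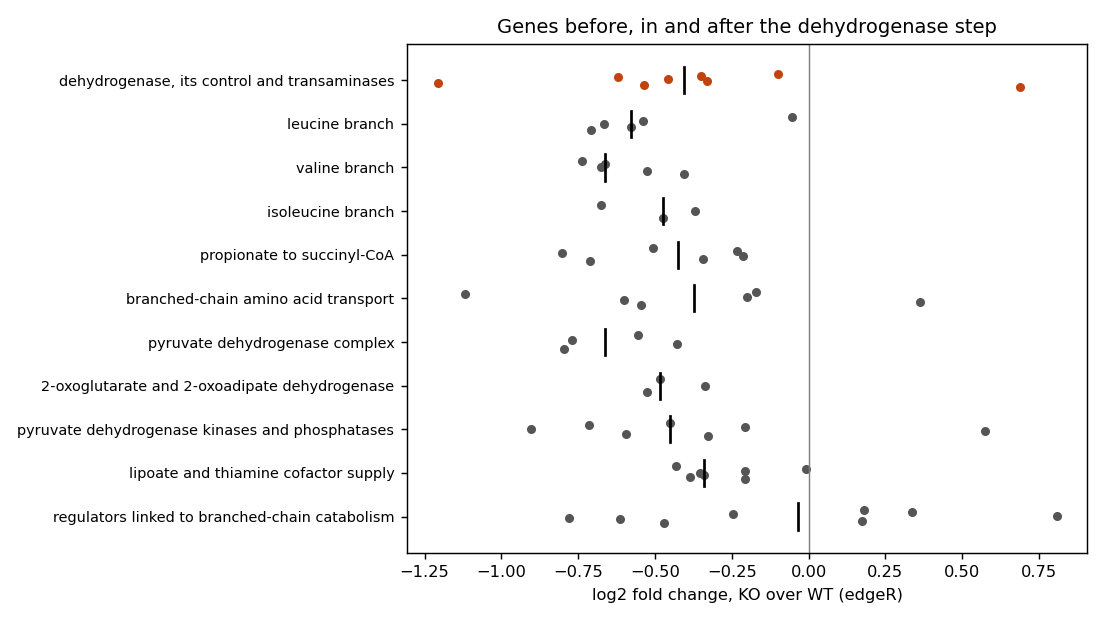
Log2 fold change of KO over WT (edgeR, 8 libraries) for each tested gene of the lists named on the left, 1 point a gene, with the list median as a bar. The top line holds the 8 genes of this account, from Bckdha at -1.21 to Bcat1 at 0.69.

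The genes whose log2 CPM followed Bckdha most closely over the 8 libraries were Uqcrc2, Ubxn6 and Sdha (Pearson r = 0.993, 0.990 and 0.989). Uqcrc2 is a core subunit of respiratory complex III, and Sdha the flavoprotein of succinate dehydrogenase. Uqcrc2 averaged 389 CPM in KO and 670 CPM in WT, and Sdha 1113 CPM in KO and 1560 CPM in WT. Those closest to Bckdk were Avpi1, Mrpl42 and Atp5f1 (r = 0.997, 0.992 and 0.988), and those closest to Ppm1k were Gemin8, Eif3i and Ppil3 (r = 0.954, 0.953 and 0.951). Among the 8 genes, Bckdha was closest to Dld (r = 0.934) and Dbt to Bcat2 (r = 0.914), and Bckdha and Dbt had r = 0.647. These correlations are descriptions over 8 points that share libraries, scaling and the split into KO and WT. The closest genes were picked as the highest of all tested genes outside the 8, so their values are high by selection.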

How the data were processed

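Whole adipose tissue RNA was sequenced from 8 mouse samples, 4 KO and 4 WT. Per the labels' protocols, mRNA was selected on oligo(dT) beads and the second cDNA strand carried dUTP, which marks strand. The deposited values are raw counts per gene and library, for 18395 genes, 206 of them at 0 in all libraries. Per the submitters' processing notes the genome build was GRCm39, with aligner, counter, strand setting and annotation not given in the sources used here. Columns were matched to samples by name. Symbols and exon lengths came from GENCODE M21 (18321 genes with a symbol, and Mmut listed as Mut), and promoter windows from RefSeq on GRCm38.p6, matched by symbol. No coordinates were converted.

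Genes were kept by filterByExpr (13901), scaled by TMM (factors 1.09 ± 0.0447 in KO and 0.914 ± 0.0288 in WT, SD, n = 4) and tested with the quasi-likelihood F test of edgeR 4.0.16 (robust, R 4.3.3), group as the only term, and Benjamini-Hochberg adjustment at 0.05 over all genes. Log2 CPM used a prior count of 2. Standard errors were derived from the fold change and F. The precision of a level is set by its count and the spread of 4 libraries.

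Alternatives were DESeq2 1.42.0 factors, total counts only, no filter, a CPM of at least 1 in 4 libraries, the DESeq2 test, limma-voom 3.58.1 with and without quality weights, the replicate number as a block, single libraries left out, WT replicate 3 and KO replicate 2 left out together, and removal of mitochondrially encoded and muscle genes. Only the main edgeR fit and limma-voom without quality weights were run on simulated counts, which had less spread between libraries than these data. The other alternatives were not tried on simulated counts. Figures used matplotlib 3.10.9.

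The 8 genes, the gene lists, the ratios and the alternatives were chosen with earlier results of these data known. The named genes were the 8 members, Fermt2, up to 3 genes with the smallest p of each list described, and the 3 genes most correlated with Bckdha, Bckdk and Ppm1k. B3gnt8 was named for its overlap with Bckdha.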

Additional observations from a re-analysis of the deposited data

Results flagged for a closer look

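The Bckdk level of WT replicate 3, 173 CPM, stood apart from the other 3 WT libraries, which lay between 140 and 146 CPM. The gap was 0.844 of the range of the group, above Dixon's critical value for 4 samples. It was the 1 value flagged among 30 groups of values checked, and chance flags about 1 in 20 groups. The same library holds the skeletal muscle transcripts, at 3.64% of its counts. Their part in the Bckdk value was not tested.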

How the results depend on the processing

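With 8 libraries, edgeR passed 0 genes at an adjusted p of 0.05 (2993 at an unadjusted p under 0.05), and limma-voom also passed 0. Scaling by total counts alone called 882 genes (858 higher, 24 lower) and 0 of the 8, and Ppm1k turned to 0.15. Without a filter 1 gene was called. DESeq2 called 1113 genes and quality-weighted limma-voom 911, each with 3 of the 8 among them. Without WT replicate 3 and KO replicate 2 together, 461 genes and 1 of the 8 (Bckdha) were called. Leaving out single libraries gave 0 to 361 genes and 0 to 1 of the 8; the highest of both came without KO replicate 2, and without WT replicate 3 alone 0 genes were called. Ppm1k then ranged from -0.29 to 0.01, and was above 0 without KO replicate 1 (0.0026) and without WT replicate 2 (0.0097). Bckdha ranged from -1.40 to -1.02, with adjusted p over all its alternatives from 0.000608 to 0.238. With the replicate block 0 genes were called, and Bckdha stood at -1.27 (adjusted p = 0.140). Deviations of same-numbered libraries from their group means correlated at -0.051, 0.044, -0.130 and 0.224. Of the KO libraries only replicate 4 correlated best with its own number, and that value was the highest of all KO and WT pairs. With so few libraries, these values cannot show whether same-numbered libraries were paired. Of 162 values of the 8 genes and Fermt2 under alternatives, 150 kept direction and side of the threshold, 9 passed it newly and 3 reversed, all of Ppm1k. The cause of these shifts was not tested. Bcat1, Bckdhb, Dbt, Bckdk and Ppm1k passed under none of these fits.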
